A study of Homo sapiens with 2 samples.

Results

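RNA polymerase III transcribes short noncoding RNAs, and 5 rows selected as its abundant transcripts were examined in HCT116 cells labelled as CREB1 knockout and as wild type. They were chosen by their expected counts in these same libraries, out of 57820 rows in the deposited table, so their high levels are a description and not a finding. ENSG00000258486.2, ENSG00000265150.1 and ENSG00000202198.1 (7SK) were taken by identifier, RMRP (ENSG00000269900.2) by symbol, and RPPH1 through ENSG00000259001.2, the row whose GENCODE 29 gene contains it on the same strand. HCT116 is a human colorectal carcinoma cell line. The first group was KO-CREB1, a CREB1 knockout clone grown from a lone cell after delivery of a nickase Cas9 and guide RNAs against CREB1, and the second was HCT116 with wild-type CREB1. There was 1 library of each, so no difference has a replicate check, no p-value was computed and differences between clones cannot be told apart from those of the genotype. Both cultures grew in DMEM with fetal bovine serum, ribosomal RNA was depleted from total RNA, and stranded libraries were sequenced.

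RNA polymerase III makes transfer RNAs, 5S ribosomal RNA and a set of small structured RNAs. Genes of the 7SK type carry their promoter upstream of the transcribed sequence, where the SNAPc complex and TFIIIB recruit the polymerase. 7SK RNA holds the elongation kinase P-TEFb inactive through HEXIM proteins, RPPH1 is the RNA subunit of RNase P, which trims the 5′ ends of transfer RNA precursors, and RMRP is the RNA subunit of RNase MRP, which acts in ribosomal RNA maturation. RNase P and RNase MRP share most of their proteins. The signal recognition particle is built on another RNA of this polymerase, 7SL.

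The sequences of the 3 members with an annotated RNA are shown for the place of the HEXIM motif in 7SK and for the longest exact run shared by RMRP and RPPH1. An exact run does not measure their likeness over the whole length, and the 2 RNAs were not aligned. They are GENCODE 29 transcripts on GRCh38, which is not the build used for the deposited counts, and they are written 5′ to 3′ with T for U. 7SK and RPPH1 are shown for their first 300 bases and RMRP whole. In 7SK, at chr6:52995620-52995919 on the plus strand, capitals mark GATC, the motif that HEXIM1 is known to contact in the 5′ hairpin. In RMRP, at chr9:35657751-35658018 on the minus strand, and in RPPH1, at chr14:20343108-20343407 on the minus strand, capitals mark the longest run of bases that the 2 RNAs have in common.
7SK: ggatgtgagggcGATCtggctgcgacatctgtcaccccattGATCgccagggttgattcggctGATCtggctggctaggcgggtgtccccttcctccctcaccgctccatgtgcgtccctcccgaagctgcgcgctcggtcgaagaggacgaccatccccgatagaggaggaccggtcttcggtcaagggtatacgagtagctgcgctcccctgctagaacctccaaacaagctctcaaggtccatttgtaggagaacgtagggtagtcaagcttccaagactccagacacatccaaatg
RMRP: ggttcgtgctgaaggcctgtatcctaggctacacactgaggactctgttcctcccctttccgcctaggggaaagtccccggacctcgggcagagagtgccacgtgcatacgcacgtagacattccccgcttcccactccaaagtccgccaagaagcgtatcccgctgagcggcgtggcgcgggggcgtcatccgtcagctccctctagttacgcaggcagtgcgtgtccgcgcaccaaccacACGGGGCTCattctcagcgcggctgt
RPPH1: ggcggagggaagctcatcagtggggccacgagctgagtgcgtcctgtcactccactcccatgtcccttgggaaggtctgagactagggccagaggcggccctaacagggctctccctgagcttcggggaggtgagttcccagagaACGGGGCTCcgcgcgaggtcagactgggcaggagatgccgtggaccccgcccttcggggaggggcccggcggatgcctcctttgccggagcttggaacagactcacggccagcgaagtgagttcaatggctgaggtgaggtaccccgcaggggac
The 7SK transcript is 331 bases long and holds 3 copies of GATC on its own strand, starting at bases 13, 42 and 64. Of 5047 GENCODE 29 transcripts of 300 to 360 bases, 66.6% hold GATC at least once and 10.3% at least 3 times. RMRP (268 bases) and RPPH1 (333 bases) shared no run longer than 9 bases, ACGGGGCTC, which starts at base 243 of RMRP and base 146 of RPPH1 and occurs in 0.0594% of the same transcripts on their own strand. The run was picked as the longest match, and RPPH1 is itself among the transcripts counted. That share therefore does not show how unusual the match is. The expected counts of RMRP and RPPH1 were whole numbers, to within 0.005, in both libraries. Those of the other 3 members had decimals, as RSEM leaves where reads are divided among rows.

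The identifiers ENSG00000258486.2 and ENSG00000265150.1 have no match in the annotation tables used here, so neither row is given a gene name or a role. GENCODE 29 lists RN7SL1, RN7SL2 and RN7SL3, the genes of 7SL RNA, under identifiers that are not rows of the deposited table. A 7SL identity of the 2 rows was therefore not tested.

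The libraries held 31178312 expected counts in the knockout and 34511071 in the wild-type cells, and 12886 genes were treated as expressed, with a mean of at least 1 CPM (counts scaled to a common depth with the TMM method). CREB1 itself had 499 counts in the knockout and 614 in the wild-type library, a log2 ratio of -0.23, and a count per gene does not show a small deletion, so it does not check the genotype. The epithelial markers EPCAM, KRT8, KRT18 and KRT19 were present in both libraries, with 6 of 10 colorectal markers expressed and a summed level of 3521 CPM in the knockout and 4019 CPM in the wild-type library. CDX1 was at 0 in both, and LGR5, VIL1 and KRT20 did not pass the filter. Of the 9 markers of other cell types, 8 matched a row, with a summed level of 5.85 CPM in the knockout and 5.38 CPM in the wild-type library. Of these, COL1A1 (89 counts in the knockout and 83 in the wild-type library) and ACTA2 (95 in the knockout and 96 in the wild-type library) were expressed and made up nearly all of that sum, while PTPRC, CD3E and COL1A2 were at 0 in both. Their part in the results was not tested.

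The 5 members were the 5 highest rows of both libraries, in the same order. Together they held 47.1% of all counts in the knockout and 48.4% in the wild-type library. For every count in a protein-coding gene there were 0.971 member counts in the knockout and 1.03 in the wild-type library. ENSG00000258486.2 held 18.4% in the knockout and 19.2% in the wild-type library. ENSG00000265150.1 held 15.1% in the knockout and 16.1% in the wild-type library. Just below this pair came 7SK with 6.07% in the knockout and 6.20% in the wild-type library. RMRP held 4.06% in the knockout and 4.18% in the wild-type library. RPPH1 held 3.45% in the knockout library (exact Clopper-Pearson 95% interval 3.44% to 3.46%), against 2.72% in the wild-type library (2.71% to 2.72%). Of the 5, RPPH1 was the member with a larger share in the knockout library. The next row, EEF1A1, an elongation factor of translation, had 303904 counts in the knockout and 345323 in the wild-type library.

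**Figure D1:**
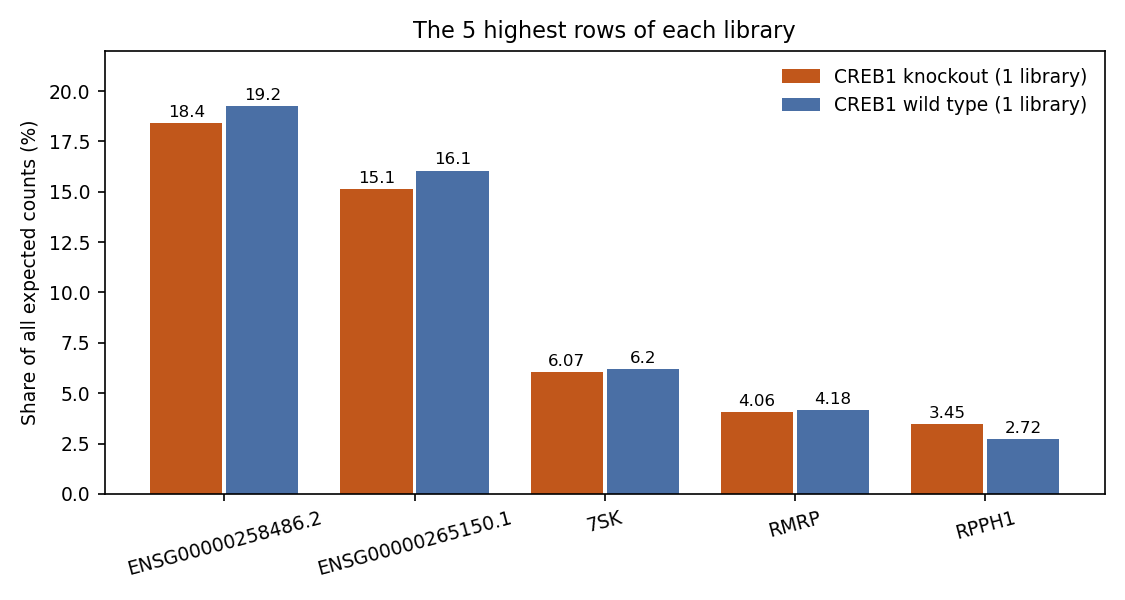
Share of all expected counts in percent held by each of the 5 rows, with the knockout library in orange and the wild-type library in blue (1 library each, no error bars). RPPH1 stands at 3.45% in the knockout and 2.72% in the wild-type library, and the other 4 rows are each slightly lower in the knockout library.

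RPPH1 had 1075948 counts in the knockout library, against 938309 in the wild-type library. At TMM-scaled levels of 33647 CPM in the knockout and 27886 CPM in the wild-type library it was 1.21-fold higher in the knockout. Its log2 ratio was 0.27, with an exact 95% interval for counting error of 0.267 to 0.275. RPPH1 thus lay apart from the other 4 members, which were all slightly lower in the knockout library. The intervals cover counting error only, with each read pair taken as its own molecule, and at this depth they are narrow for any abundant row. In bulk RNA, fewer cells holding an RNA and less of it per cell cannot be told apart.

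RMRP, the partner RNA in RNase MRP, had 1266411 counts in the knockout and 1442785 in the wild-type library. Its levels were 39603 CPM in the knockout and 42878 CPM in the wild-type library, a log2 ratio of -0.11 (interval -0.118 to -0.111). 7SK had 1892461 counts in the knockout and 2139125 in the wild-type library. Its levels were 59181 CPM in the knockout and 63573 CPM in the wild-type library, with a log2 ratio of -0.10 (interval -0.106 to -0.100). The ratios of 7SK and RMRP differed by 0.011 on the log2 scale.

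ENSG00000258486.2 had 5742276 counts in the knockout and 6639871 in the wild-type library, with a log2 ratio of -0.14 (interval -0.138 to -0.134). ENSG00000265150.1 had 4720463 counts in the knockout and 5540464 in the wild-type library, with a log2 ratio of -0.16 (interval -0.159 to -0.156). Summed, so that a division of reads between these 2 rows has no effect, their log2 ratio was -0.15. The 4 members other than RPPH1 thus lay between -0.16 and -0.10.

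None of the 5 members was called at a threshold of 2-fold with an interval that excluded no difference, where 2.92% of the 12886 expressed genes were called (1.28% higher and 1.64% lower in the knockout library). By the interval alone, 4 members were lower and RPPH1 higher, and 51.9% of expressed genes were called by that rule in either direction, with 25.5% of expressed genes lower and 26.4% higher. Counting error shrinks with depth, and among the 40 rows with a mean of at least 1000 CPM, the members included, 95% were called by the interval alone, 72.5% lower and 22.5% higher. A called direction is therefore usual for rows at this level and not a result about the members.

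Over all expressed genes the median log2 ratio was 0.01 and 48.8% lay below 0. Among the other 35 rows with a mean of at least 1000 CPM, the median was -0.15 and 27 lay below 0. The 4 lower members sat within that group: 16 of the 35 rows were at least as low as ENSG00000265150.1, 18 at least as low as ENSG00000258486.2, 19 at least as low as RMRP and 20 at least as low as 7SK. RPPH1 lay near the upper end, with 1 of the 35 rows at least as high. Of all expressed genes, 38.5% had a log2 ratio as large as that of RPPH1 or larger in either direction. For the other 4 members that share was 59.7% to 72.7%.

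The rows outside the set with a mean of at least 1000 CPM and the nearest log2 ratio were EEF1G (-0.13) for ENSG00000258486.2, RPL8 (-0.16) for ENSG00000265150.1, RPS18 (-0.10) for 7SK and EEF1A1 (-0.11) for RMRP. The nearest to RPPH1 was ANXA2, a membrane-binding annexin, at 0.30 with 39069 counts in the knockout and 33294 in the wild-type library. These 5 neighbours were found by likeness of 1 ratio over 2 libraries. The others encode ribosomal proteins (RPL8, RPS18) and elongation factors (EEF1A1, EEF1G).

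**Figure D2:**
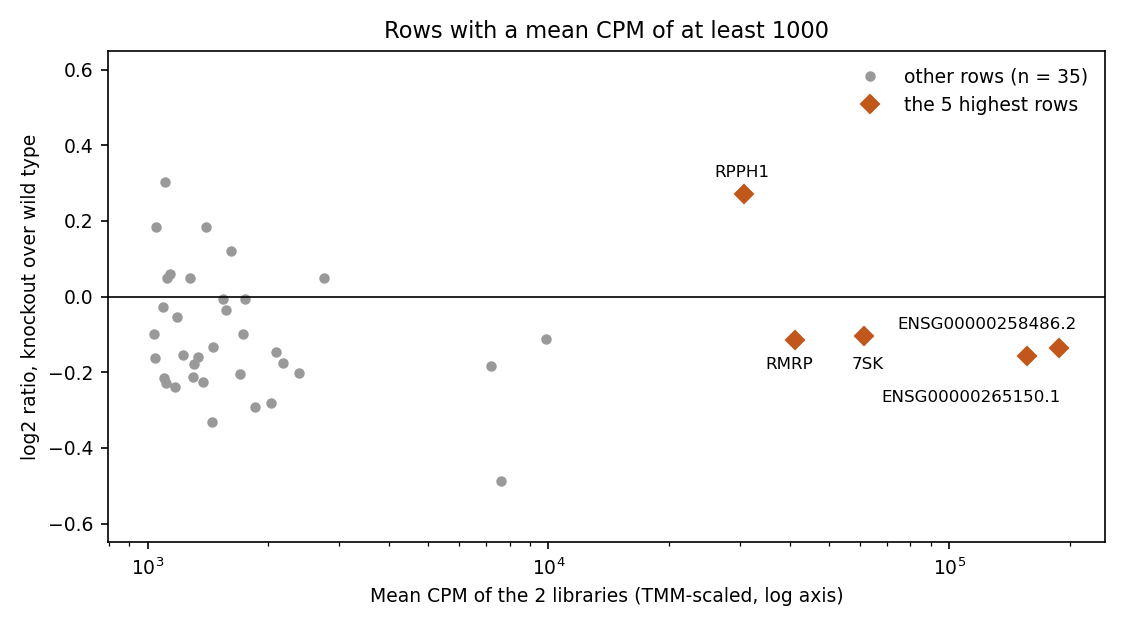
Log2 ratio of knockout over wild type against mean CPM (log axis) for the 40 rows with a mean of at least 1000 CPM, with the 5 highest rows as orange diamonds and the other 35 as grey points (1 library per group). RPPH1 lies at 0.27 and the other 4 diamonds between -0.16 and -0.10.

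Ratios between members within a library do not depend on any scaling between libraries. RMRP had 1.18 counts per RPPH1 count in the knockout library (interval 1.17 to 1.18), against 1.54 in the wild-type library (1.53 to 1.54). The change of that ratio was -0.39 on the log2 scale. 7SK had 1.76 counts per RPPH1 count in the knockout and 2.28 in the wild-type library, a change of -0.37. All 4 ratios over RPPH1 were lower in the knockout library, with changes of -0.43 to -0.37. The 6 ratios among the other 4 members changed by -0.05 to 0.02, for example with 1.49 counts of 7SK per RMRP count in the knockout and 1.48 in the wild-type library, or 3.03 counts of ENSG00000258486.2 per 7SK count in the knockout and 3.10 in the wild-type library. The 4 rows thus kept nearly the same proportions to each other in both libraries, and RPPH1 was higher relative to each of them in the knockout library.

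Levels of different RNAs can be set side by side only per length. 7SK stood at 178795 CPM per kilobase in the knockout and 192062 in the wild-type library, and RMRP at 147773 CPM per kilobase in the knockout and 159993 in the wild-type library. RPPH1 stood at 101042 CPM per kilobase in the knockout and 83740 in the wild-type library over the 333 bases of the RNA. The row ENSG00000259001.2 is a longer GENCODE 29 gene of 638 bases, AL355075.4, which adds 278 bases upstream and 27 bases downstream of RPPH1. Over that length the values were 52738 in the knockout and 43708 CPM per kilobase in the wild-type library. Counts per row do not show how many reads lie in the added bases, and all were taken as RPPH1. The order 7SK, RMRP, RPPH1 held with either length and in both libraries. No length is given for the 2 highest rows.

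The scaling between libraries set the size of each log2 ratio but not its sign. With total-count scaling the ratio of 7SK was -0.030 and that of RPPH1 0.34, and with DESeq2 size factors they were -0.12 and 0.25. TMM after removing the 5 rows, which hold nearly as many counts as all other rows, gave -0.10 for 7SK and 0.27 for RPPH1. RPPH1 was higher and the other 4 members were lower in the knockout library under each of the 5 scalings.

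**Figure D3:**
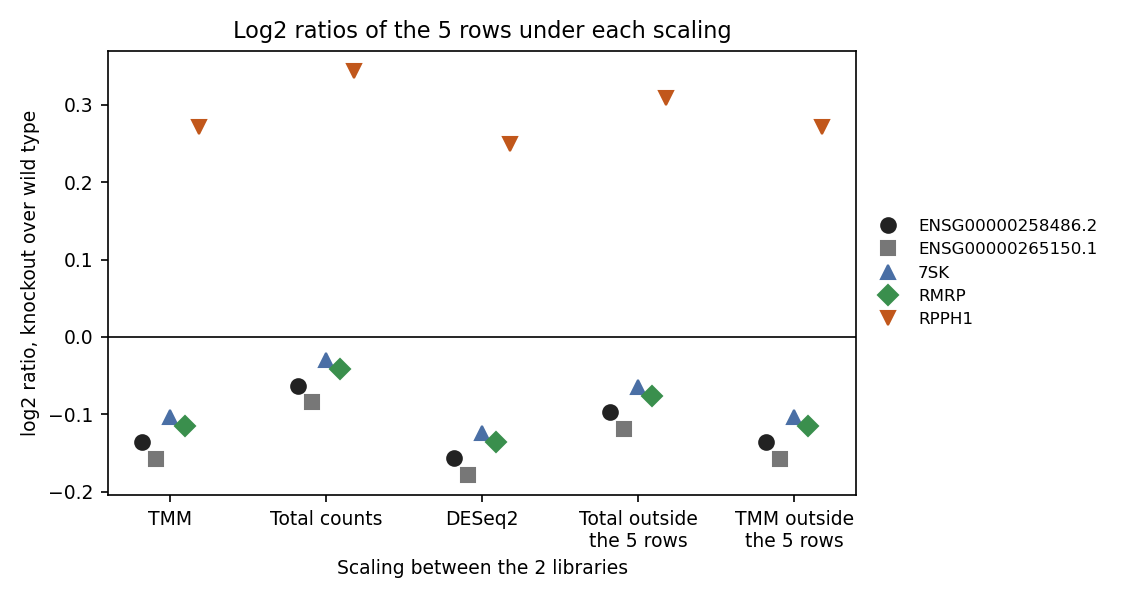
Log2 ratios of knockout over wild type for the 5 rows under 5 scalings between the libraries, 1 symbol per row and no error bars, since the counting intervals are narrower than the symbols. RPPH1 lies between 0.25 and 0.34 and the other 4 rows between -0.18 and -0.03.

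Pseudogenes named after 7SL, 7SK, RMRP and RPPH1 took few reads. The 602 rows named as RN7SL pseudogenes, which are not taken as copies of any member since no member was identified as 7SL, held 12297 counts in the knockout and 15118 in the wild-type library, which is 0.0394% of all counts in the knockout and 0.0438% in the wild-type library. RN7SL4P (5758 counts in the knockout, 7545 in the wild-type library) and RN7SL5P (6375 in the knockout, 7406 in the wild-type library) made up most of that sum. The summed log2 ratio of the RN7SL pseudogenes was -0.22 (interval -0.259 to -0.190). The -0.15 of the 2 highest rows summed lay outside that interval. The leading pseudogenes differed, with RN7SL4P at -0.32 (interval -0.366 to -0.267) and RN7SL5P at -0.14 (interval -0.191 to -0.094). The -0.15 lay inside the interval of RN7SL5P, and these comparisons do not test a 7SL identity. The 289 RN7SK pseudogenes held 3735 counts in the knockout and 4368 in the wild-type library, led by RN7SKP203 and RN7SKP255, with a summed log2 ratio of -0.15 (interval -0.216 to -0.089). The ratio of 7SK itself, -0.10, lay inside that interval. The 1 row named as an RMRP pseudogene and the 2 named as RPPH1 pseudogenes were at 0 in both libraries, where a count of 0 allows up to 3 counts. Reads in pseudogene rows of such close copies are uncertain.

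Other RNA polymerase III transcripts had far fewer counts than the members. These counts were not divided by length, so they do not rank the levels of the RNAs. Of 23 listed, 17 matched a row, 10 were expressed, 9 of those lay below 0 and none was called at 2-fold, with a median log2 ratio of -0.16, against 0.01 over all expressed genes. Of those 10 rows, 5 are U6 copies with a single shared value, which is also the median. With U6 counted once, a choice made after the values were seen, 5 of 6 lay below 0 and the median was -0.12, and at a mean of at least 5 CPM, which leaves U6 out, it was -0.09. The Y RNAs, which bind the Ro protein, were represented by RNY1 (3730 counts in the knockout, 4164 in the wild-type library, log2 ratio -0.09), RNY3 (1578 in the knockout, 2264 in the wild-type library, -0.45) and RNY4 (1438 in the knockout, 1749 in the wild-type library, -0.21). RNY3 was the lowest of the 10. BCYRN1, a neuronal RNA linked to translational control, had 196 counts in the knockout and 219 in the wild-type library. RNU6ATAC, a small nuclear RNA of the minor spliceosome, had 711 counts in the knockout and 747 in the wild-type library, with log2 ratios of -0.09 for BCYRN1 and 0.00 for RNU6ATAC. Of these 10 rows, 3 had intervals below 0, which were those of RNY1, RNY3 and RNY4, where 25.5% of expressed genes were lower by that rule. RNU6ATAC, the row not below 0, lay below 0 with DESeq2 size factors.

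U6, the catalytic small nuclear RNA of the spliceosome, is encoded by many near-identical copies, and several of their rows had identical expected counts. RNU6-1, RNU6-2, RNU6-7, RNU6-8 and RNU6-9 each had 80.97 expected counts in the knockout and 95.09 in the wild-type library, a log2 ratio of -0.16 (interval -0.60 to 0.29). In the wild-type library 11 U6 rows had the value of 95.09, and in the knockout library 9 rows had that of 80.97. The other 2, RNU6-37P and RNU6-11P, chosen after their values were seen, were at 0.36 in the knockout and 95.09 in the wild-type library. Their values cannot be read apart from those of the other copies, and all U6 rows together held 861 counts in the knockout and 1100.0 in the wild-type library. Vault RNAs lay under the filter, with 49 counts in all in the knockout and 108 in the wild-type library. Their summed log2 ratio was -1.07 (interval -1.58 to -0.57), at low counts. VTRNA1-1 and VTRNA2-1 were each at -1.34 with intervals below 0. VTRNA1-2 (-0.68) and VTRNA1-3 (0.43) had intervals that included 0. Being under the filter, these rows were not among those that could be called. All 506 rows of 5S ribosomal RNA genes and pseudogenes were listed at 0.

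Small RNAs made by RNA polymerase II, most of them from promoters that also use SNAPc, were set beside them. Of 18 expressed rows, 14 lay below 0, where 48.8% of expressed genes did. None was called at 2-fold and the median log2 ratio was -0.17. By the interval alone 12 were lower and 1 higher, where that rule called 25.5% of expressed genes lower and 26.4% higher. Copies with identical counts were each counted as a row. With DESeq2 size factors RNU1-1 and RNVU1-18, at 0.01 here, lay below 0 too. SNORD3A, the U3 RNA of ribosomal RNA processing, had 214882 counts in the knockout and 256647 in the wild-type library, with a log2 ratio of -0.18. RNU2-2P, of the U2 family, had 34429 counts in the knockout and 42741 in the wild-type library, with a log2 ratio of -0.24. TERC, the RNA of telomerase, had 12561 counts in the knockout and 12332 in the wild-type library, with a log2 ratio of 0.10.

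The lowest of these rows were SNORD13 (log2 ratio -0.92, 417 counts in the knockout and 832 in the wild-type library), RNU1-2 (-0.84), SNORD118 (-0.61) and RNU5F-1 (-0.55). RNU1-1 and RNVU1-18, copies of U1, had the same 25994 counts in the knockout and 27126 in the wild-type library, so the value of each U1 row depends on the division of reads. Between the extremes, RNU4-1, RNU4-2, RNU5A-1, RNU5B-1, RNU5D-1, RNU5E-1, SNORD3B-1 and SNORD3C had log2 ratios of -0.27 to -0.10. The highest was RNU4ATAC, with 63 counts in the knockout and 57 in the wild-type library. Its log2 ratio was 0.22, with an interval of -0.32 to 0.76 that included 0. At a mean of at least 5 CPM the median of this list was -0.19 and that of the other RNA polymerase III transcripts -0.09. The latter rests on few rows and is the value of BCYRN1 alone (interval -0.37 to 0.20), so the medians do not rank the lists.

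The proteins of RNase P and RNase MRP were compared next, because RPPH1 and RMRP bind nearly the same set. Of 11 genes, all expressed, 5 lay above and 6 below 0, none was called at 2-fold, and the median log2 ratio was -0.05, which turned to 0.02 with total-count scaling. The lowest was RPP25, which binds both RNAs as a pair with RPP20, with 196 counts in the knockout and 409 in the wild-type library, a log2 ratio of -0.99. POP1, the largest protein subunit, had 1350 counts in the knockout and 1826 in the wild-type library, a log2 ratio of -0.36. RPP40 had 207 counts in the knockout and 179 in the wild-type library, with a log2 ratio of 0.28 whose interval included 0. RPP21, described in RNase P, had a log2 ratio of 0.10 and its interval included 0 as well. By the interval alone 4 of the 11, POP1, RPP14, RPP25 and RPP38, were lower and none was higher, where that rule called 25.5% of expressed genes lower and 26.4% higher.

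Genes of the 7SK particle and P-TEFb had a median log2 ratio of 0.17, with 5 of 7 above 0 and none called at 2-fold. Of the 12886 expressed genes, 6600 lay above 0 and 2.92% were called at 2-fold. Counting intervals lay above 0 for 4 of the 7 and below 0 for 2, against 26.4% and 25.5% of expressed genes. HEXIM1, the inhibitor that 7SK brings to P-TEFb, had 1490 counts in the knockout and 1124 in the wild-type library, a log2 ratio of 0.48 (interval 0.367 to 0.593). CCNT2, a cyclin of P-TEFb, had a log2 ratio of 0.23. LARP7, which binds the 3′ end of 7SK, had 540 counts in the knockout and 656 in the wild-type library, a log2 ratio of -0.21, and CCNT1 one of -0.10. In the same pair of libraries 7SK RNA itself lay at -0.10.

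Of 8 genes of the signal recognition particle and its receptor, 5 lay above 0, none was called at 2-fold, and the median log2 ratio was 0.06. Intervals lay above 0 for 4 of them and below 0 for 1, against 26.4% and 25.5% of expressed genes. SRPRA, the receptor subunit that binds the particle, had 710 counts in the knockout and 571 in the wild-type library, a log2 ratio of 0.39, and SRP14, of the Alu domain, one of 0.19. SRPRB, the membrane anchor of the receptor, had a log2 ratio of -0.23 and SRP19 one of -0.11.

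**Figure D4:**
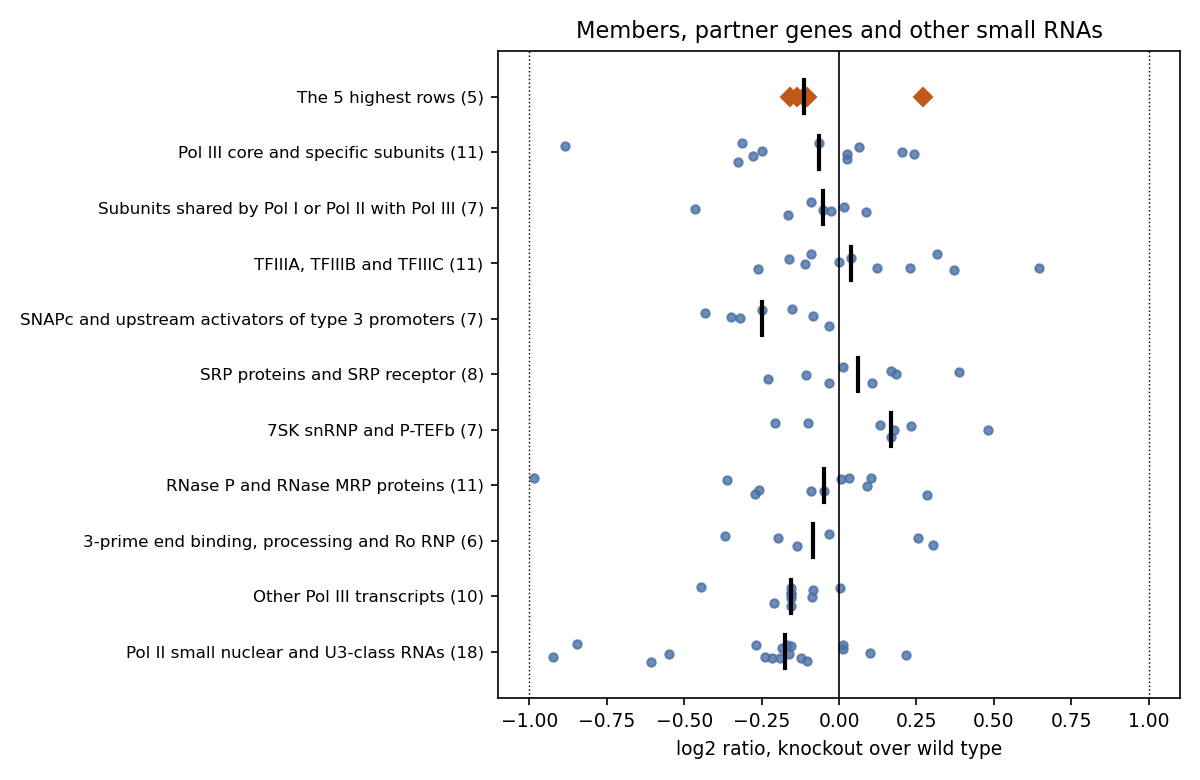
Log2 ratios of knockout over wild type (TMM-scaled) for the 5 highest rows (diamonds) and for the expressed genes of each list (points, number in parentheses). The lists of regulators and of cell type markers are left out. Black bars give the median of each group and dotted lines mark 2-fold (1 library per group). No point lies beyond the dotted lines, and the lowest is RPP25 at -0.99.

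The polymerase itself was examined in 11 genes of its specific subunits, of which 5 lay above and 6 below 0, with none called at 2-fold and a median log2 ratio of -0.06 that turned to 0.01 with total-count scaling. Counting intervals lay above 0 for 1 of the 11 and below 0 for 5, against 26.4% and 25.5% of expressed genes. POLR3G, which takes the place of POLR3GL in the form of the enzyme found in undifferentiated cells, was the lowest with 286 counts in the knockout and 556 in the wild-type library, a log2 ratio of -0.88. POLR3GL had 296 counts in the knockout and 263 in the wild-type library, a log2 ratio of 0.24 whose interval included 0. The next lowest was POLR3K (-0.33), and the second highest was POLR3A, the largest subunit (0.20). Of the 7 subunits shared with RNA polymerases I or II, POLR2H (-0.47) and POLR2K (-0.17) were lowest and POLR2F (0.09) and POLR1C (0.02) highest, with a median of -0.05 that turned to 0.02 with total-count scaling.

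Of 11 initiation factor genes of TFIIIA, TFIIIB and TFIIIC, 7 lay above 0 and none was called at 2-fold, with a median log2 ratio of 0.04. Intervals lay above 0 for 5 of them and below 0 for 2, against 26.4% and 25.5% of expressed genes. BDP1, a TFIIIB subunit used at all promoters of this polymerase, had 2022 counts in the knockout and 1361 in the wild-type library, a log2 ratio of 0.64. GTF3C6, a TFIIIC subunit, had a log2 ratio of 0.37, GTF3A, the factor for 5S genes, one of -0.26 and GTF3C3 one of -0.16. BRF2, the TFIIIB subunit for upstream promoters such as those of 7SK, RMRP and RPPH1, had 530 counts in the knockout and 543 in the wild-type library, and it was looked at in addition to the 4 named by their rank.

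The list of SNAPc subunits and the activators POU2F1 and ZNF143, which act at those upstream promoters, held 7 genes. All 7 lay below 0 under TMM, where 48.8% of expressed genes did. Their median log2 ratio was -0.25 and none was called at 2-fold, where that rule called 2.92% of expressed genes. Counting intervals lay below 0 for 4 of the 7 and above 0 for none, against 25.5% and 26.4% of expressed genes. SNAPC5 (257 counts in the knockout and 365 in the wild-type library, log2 ratio -0.43) and POU2F1 (369 in the knockout and 495 in the wild-type library, -0.35) were lowest, and SNAPC3 (-0.03) and SNAPC4 (-0.08) highest. With total-count scaling the median was -0.18 and SNAPC3 lay above 0. Of the members with a promoter of this kind, RPPH1 had a log2 ratio of 0.27, 7SK one of -0.10 and RMRP one of -0.11. A link between these ratios and those of the 7 genes was not tested.

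Of 5 listed regulators of the polymerase, 1 was called lower at 2-fold, where that rule called 1.64% of expressed genes lower. It was MYC, with 1889 counts in the knockout and 4334 in the wild-type library, a level 2.18-fold lower in the knockout library. MYC is a transcription factor that stimulates transcription by RNA polymerase III. A link between its level and those of the members was not tested. MAF1, the general repressor of the polymerase, had a log2 ratio of -0.11 and RB1, another repressor, one of -0.21.

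In the list of 3′ end binding and processing factors, which also holds the Ro protein, 4 of 6 genes lay below 0 and none was called at 2-fold, with a median log2 ratio of -0.08. Intervals lay above 0 for 2 of the 6 (RO60 and RNASEH2A) and below 0 for 3, against 26.4% and 25.5% of expressed genes. RNASEH2A, a subunit of RNase H2, is not a factor of this kind and was listed in error, and without it, an exclusion made after the values were seen, 4 of 5 lay below 0 with a median of -0.14. SSB, the La protein that binds the terminal uridines of new transcripts of this polymerase, had 1237 counts in the knockout and 1493 in the wild-type library, a log2 ratio of -0.20. TUT1, which adds uridines to U6, was the lowest at -0.37. RO60, the Ro protein that binds Y RNAs, was the highest at 0.30, with 1714 counts in the knockout and 1460 in the wild-type library, and RNASEH2A had a log2 ratio of 0.25.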

How the data were processed

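Total RNA of 1 knockout and 1 wild-type library was measured. Per the labels' protocols, RNA was isolated with RNAzol, depleted of ribosomal RNA with Ribo-Zero and made into stranded libraries. The submitters' processing notes name build hg19 and the tools RSEM 1.2.26, STAR 2.4.2a and cutadapt 2.0. Which annotation, strand setting or filter was used is not given in the sources read. The authors deposited expected counts per gene, unscaled, and RSEM divides reads shared by near-identical genes among their rows.

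Identifiers were matched without versions to GENCODE 29 (52338 of 57820, 90.5%) and, for older symbols, to a second name table. Counts were rounded and scaled with TMM (edgeR 4.0.16, R 4.3.3). Log2 ratios, knockout over wild type, used a prior count of 0.5. Intervals are exact Clopper-Pearson 95% intervals (SciPy 1.17.1) of the conditional binomial and cover counting error only. Genes were expressed at a mean of at least 1 CPM, and called at 2-fold with an interval excluding 0. The calling steps were tested on simulated data. Those data held counting error only, so variation between libraries or clones was not part of the test. DESeq2 1.42.0 gave alternative size factors.

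Both columns were assigned by genotype name. The members and the 13 lists, with 138 entries of which 11 matched no row, were chosen with earlier results of these data known. Named were all members, all expressed small RNAs listed, and of each other list the called genes and the 2 highest and 2 lowest, the nearest row to each member and the rows just below the members. A list member that this rule selects is not reported here. Genes named beyond this rule were chosen after their values were seen, among them the pseudogene rows, the markers, BRF2, RPP14 and RPP38.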

Additional observations from a re-analysis of the deposited data

How the results depend on the processing

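With 1 library per group no library could be left out. No paired analysis was possible because each group has 1 library. Values below are log2 ratios, knockout over wild type, for ENSG00000258486.2, ENSG00000265150.1, 7SK, RMRP and RPPH1 in that order. Total-count scaling gave -0.063, -0.085, -0.030, -0.042 and 0.34. DESeq2 size factors gave -0.16, -0.18, -0.12, -0.14 and 0.25. Total counts outside the 5 rows gave -0.10, -0.12, -0.065, -0.076 and 0.31. TMM after removing the 5 rows, unrounded counts and a prior count of 5 moved no member beyond its counting interval, and no sign changed under any of these alternatives. Relative to TMM, the median of all expressed genes moved by 0.07 with total counts and by -0.02 with DESeq2. Over all results and alternatives, 74 values stayed near the main value and 22 moved further than counting error or, for counts of genes, by over 1.5 times. Summing the 2 highest rows gave -0.15.

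The number of genes called at 2-fold was 165 higher and 211 lower in the knockout library. It was 451 and 635 without the filter on CPM, and 75 and 62 at a mean of at least 5 CPM. The share called higher, 43.9%, was 54.6% with total-count scaling and 54.7% at a mean of at least 5 CPM. Total-count scaling moved the median of the subunits shared between polymerases to 0.021 and that of the RNA polymerase II small RNAs to -0.10. At a mean of at least 5 CPM, the median of the other RNA polymerase III transcripts was -0.09, with fewer rows left, since the U6 rows fell below that level. With identical U6 rows counted once it was -0.12, and without RNASEH2A the median of the 3′ end factors was -0.14, both chosen after seeing the data. Counting intervals are narrow for the members and wide for the vault RNAs, which had 49 counts in the knockout and 108 in the wild-type library.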

Other observations

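The genes next to the members in GENCODE 29 were chosen after the values of the members had been seen. PARP2, a DNA repair enzyme that starts on the other strand beside RPPH1 and overlaps the 638-base row by 104 bases, had 461 counts in the knockout and 481 in the wild-type library, with a log2 ratio of 0.01 (95% counting interval -0.18 to 0.20). That interval ends below the 0.27 of RPPH1. CCDC107 and ARHGEF39, next to RMRP, had log2 ratios of 0.02 (229 counts in the knockout and 237 in the wild-type library) and 0.17 (444 counts in the knockout and 416 in the wild-type library), and both intervals included 0. The -0.11 of RMRP lay inside the interval of CCDC107 (-0.24 to 0.29) and below that of ARHGEF39 (-0.03 to 0.36). GSTA4, next to 7SK, had 10 counts in the knockout and 18 in the wild-type library, with a log2 ratio of -0.75 (interval -2.05 to 0.42).

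ENSG00000266037.1, the eighth row of the knockout and the seventh of the wild-type library, also has no match in the annotation used here. It had 203202 counts in the knockout and 299812 in the wild-type library, with a log2 ratio of -0.49, the lowest of the 3 rows that follow the members, which are EEF1A1 (-0.11), this row and SNORD3A (-0.18).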
